A study of Mus musculus with 9 samples.

Results

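Cytochrome P450 genes outside the Cyp1 family, together with the gene for their electron donor, were followed in RNA-seq libraries of Hepa 1 WT cells, a mouse hepatoma line. The genes were taken by name, as every symbol of the form Cyp, number, letters, number, leaving out the Cyp1a and Cyp1b subfamilies and Cyp51, and adding Por. This gave 85 P450 genes and Por, 86 of the 28932 genes in the tables. The study compared 3 libraries of cells treated with 10 nM FICZ, 3 of cells treated with 50 uM tryptamine and 3 of control cells, all at 6 h. FICZ is a tryptophan photoproduct and a strong ligand of the aryl hydrocarbon receptor (AhR), and tryptamine is a monoamine made from tryptophan. The labels call the cells Hepa 1 WT and give the cell line as HC1C, name no further allele, and call the controls untreated in 1 field and vehicle-treated in another. They do not say whether the libraries came from separate cultures, so p-values measure the spread between these libraries, which may be technical.

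P450 enzymes are heme proteins that insert an oxygen atom into drugs, pollutants, fatty acids, sterols, bile acid precursors and retinoids. Those of the endoplasmic reticulum take their electrons from NADPH through a single flavoprotein, the NADPH-cytochrome P450 oxidoreductase encoded by Por, while those of mitochondria take them from ferredoxin. In the liver most drug oxidation falls to the Cyp2 and Cyp3 families. The Cyp1 family is the classical AhR target, and Cyp2s1 is a P450 outside that family known to be raised by AhR ligands.

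The total count over genes was 11594786 to 16715843 per library. The shallowest library, control replicate 3, stood apart: across genes, its log CPM (counts scaled to library size) had correlations of 0.954 to 0.960 with the rest, which correlated among themselves at 0.987 or more. Genes with transcripts over 6000 nt were lower in it than in control replicates 1 and 2, by a median log2 difference of -0.85, and those up to 1000 nt were higher, by 0.63. Calls and the differences of single members are therefore also given without this library. Of 11 hepatocyte markers, 3 were present, Alb at 206 to 275 CPM, Trf at 410 to 482 CPM and Afp at 114 to 228 CPM over the 9 libraries. The other 8 hepatocyte markers, among them Ttr, Apoa1, Apob and Hnf4a, were at 0 or under 0.2 CPM in every library. Markers of other tissues were also present. Among 8 fibroblast or stellate markers, Col1a1 was at 878 to 1316 CPM and Dcn at 309 to 423 CPM. Col3a1, Des, Pdgfra and Pdgfrb lay at 8.27 to 67.1 CPM, Col1a2 at 0 to 0.512 CPM, and Lum was at 0. Among 4 bile duct markers, Krt7 was at 820 to 1322 CPM, Sox9 at 68.9 to 86.9 CPM, Krt19 at 0.541 to 2.32 CPM and Epcam at 0. The summed level of the hepatocyte markers was 770 to 792 CPM with FICZ, 757 to 782 CPM with tryptamine and 784 to 985 CPM in control. That of the fibroblast or stellate markers was 1630 to 1754 CPM with FICZ, 1630 to 1772 CPM with tryptamine and 1399 to 1700 CPM in control. No marker passed with all 9 libraries, and without control replicate 3 Col3a1 rose with FICZ over control (log2 0.39 ± 0.0929, SE, edgeR adjusted p = 0.0453). Of 6 blood or endothelial markers none exceeded 5 CPM. The part of cell identity in the results was not tested. In bulk RNA, fewer cells of a type and less RNA per cell cannot be told apart.

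Most of the family had no counts in these cells. Of the 85 P450 genes, 52 were listed at 0 in all 9 libraries, 19 had 1 to 49 counts summed over the libraries and fell below the filter on low counts, and 14 passed it. Of all 28932 genes, 18257 had a count in at least 1 library and 12372 passed the filter. The counting rule is not given, so reads of near-identical copies may have been lost from some genes at 0. A count of 0 allows up to 3 counts, which equal 0.179 to 0.256 CPM depending on the library. Por also passed, so that 15 members were tested.

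The genes at 0 were chiefly the enzymes that oxidise drugs in liver. In the xenobiotic group 34 of 44 members were listed at 0, including all 4 Cyp2a and all 5 Cyp2b genes, 9 of 12 Cyp2c genes, 8 of 9 Cyp2d genes and 6 of 7 Cyp3a genes. Cyp2e1, the ethanol-oxidising P450, had 3 counts in all. Among the 22 genes for fatty acid and eicosanoid oxidation 10 were at 0. Among them were all 4 Cyp4a genes that the naming rule took in, of the peroxisome proliferator-responsive fatty acid hydroxylases. Of the Cyp4f subfamily, which hydroxylates fatty acids and leukotrienes, 7 of 8 genes had counts. The bile acid and oxysterol group had 4 of 6 members above the filter and 2 at 0, among them Cyp8b1, the sterol hydroxylase needed for cholic acid. In the group for steroid hormone synthesis 3 of 6 were at 0, including the aromatase Cyp19a1, and the other 3 had 1 to 5 counts. In the group for retinoids and vitamin D 3 of 6 were at 0, including Cyp26a1, which clears retinoic acid.

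**Figure D1:**
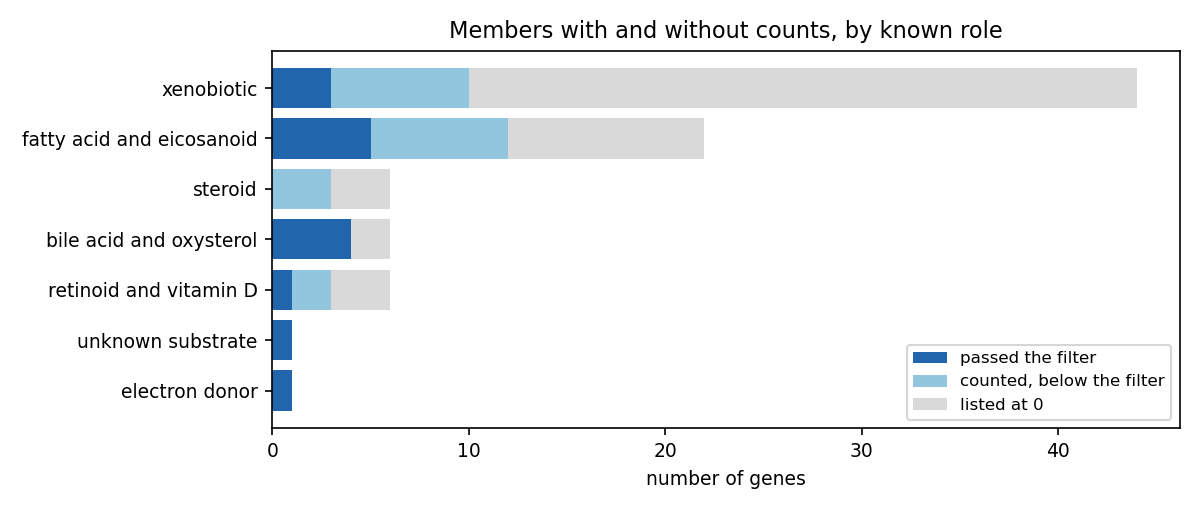
Number of genes (horizontal axis) in each group of known role (vertical axis), split into members that passed the filter on low counts, members counted below it and members listed at 0. The xenobiotic group is the largest, with 44 genes, and 34 of them were at 0.

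The highest sums below the filter belonged to Cyp4f14, Cyp2f2 and Cyp2ab1. Cyp4f14, a leukotriene and vitamin E hydroxylase, had 6, 10 and 2 counts in FICZ replicates 1 to 3, 3, 8 and 8 in the tryptamine replicates and 4, 4 and 4 in the control replicates. Cyp2f2, the naphthalene-oxidising P450 of mouse airway club cells, had 7, 11 and 8 counts with FICZ, 3, 2 and 5 with tryptamine and 6, 1 and 1 in control. Cyp2ab1, whose substrates are little studied, had 3, 2 and 2 counts with FICZ, 10, 6 and 0 with tryptamine and 1, 9 and 5 in control. These counts are too few for a comparison. Of the 19 genes in this class, 11 had at most 5 counts in all libraries together.

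Levels between genes were compared per length, as CPM per kilobase of transcript. In control, Por was the highest member at 55.0 ± 5.03 CPM per kilobase (SD, n = 3), followed by Cyp20a1 at 26.8 ± 2.38, and their libraries did not overlap. Cyp4f16 at 9.49 ± 1.23 and Cyp2s1 at 8.08 ± 0.914 CPM per kilobase came next and overlapped. Cyp27a1 at 6.08 ± 0.415 and Cyp39a1 at 4.33 ± 0.667 CPM per kilobase stood apart from their neighbours. The next 6 genes, Cyp4f17, Cyp2c55, Cyp4b1, Cyp2j6, Cyp4f13 and Cyp3a13, had means of 2.49 down to 1.28 CPM per kilobase and each overlapped the next. Cyp26b1, Cyp7b1 and Cyp7a1 closed the order at 0.757, 0.481 and 0.418 CPM per kilobase. Over control replicates 1 and 2 alone the order was the same except that Cyp4b1 moved below Cyp2j6 and Cyp4f13. With FICZ, Cyp2s1 at 15.6 ± 1.20 CPM per kilobase (SD, n = 3) lay above Cyp4f16 at 8.48 ± 0.548, without overlap.

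**Figure D2:**
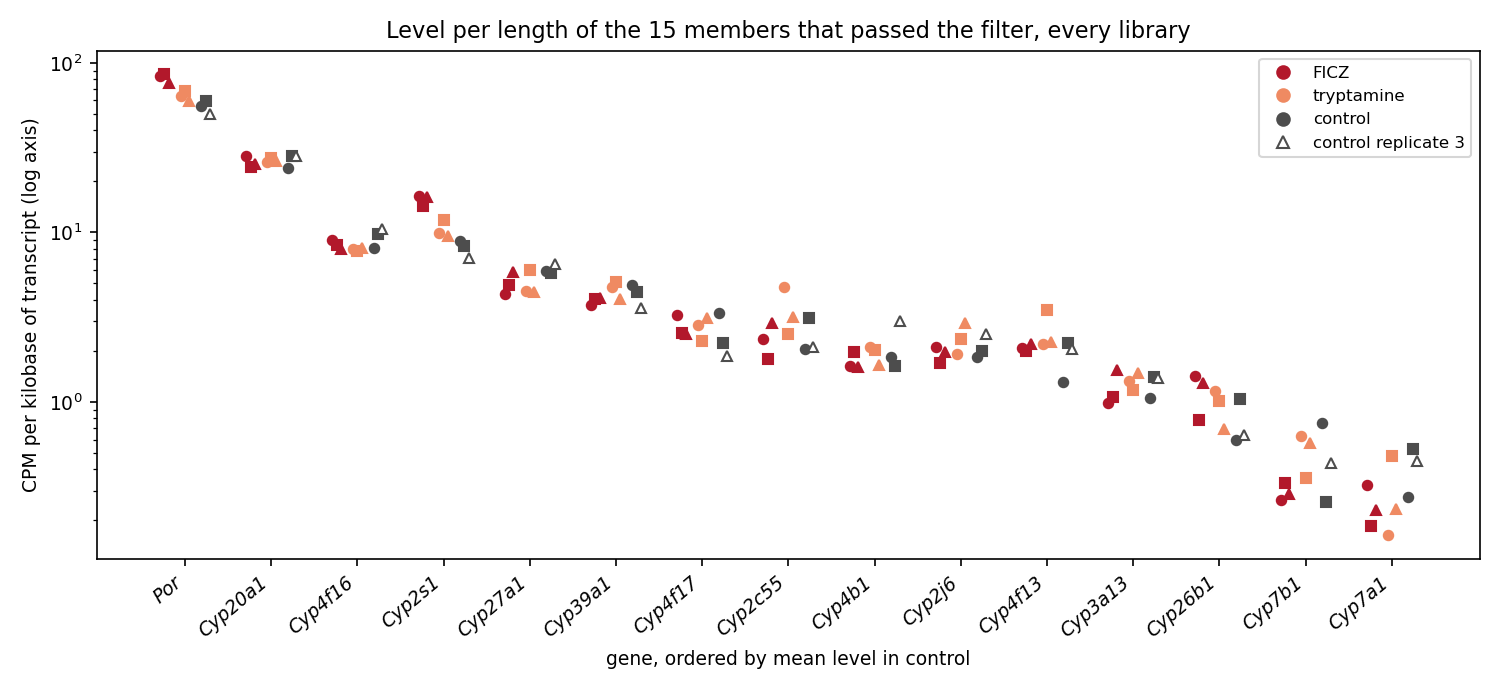
Level per length, in CPM per kilobase of transcript on a log axis, of the 15 members that passed the filter, with 1 point per library for FICZ, tryptamine and control (circle, square and triangle for replicates 1, 2 and 3; the open triangle is control replicate 3). The groups separate at Cyp2s1 and, for FICZ, at Por, and the other genes differ among themselves over a far wider range than between groups.

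Summed over the 85 P450 genes, the level per length was 73.8 ± 3.77 CPM per kilobase with FICZ, 71.9 ± 2.87 with tryptamine and 69.6 ± 3.31 in control (SD, n = 3 each). Cyp2s1 made up 21.4, 20.5 and 21.7% of that sum in the FICZ replicates, 13.9, 15.8 and 13.8% in the tryptamine replicates and 13.5, 11.5 and 9.94% in the control replicates. Cyp20a1, Cyp4f16 and Cyp2s1 together held 66.2 to 69.6% of the sum with FICZ, 61.4 to 63.5% with tryptamine and 62.5 to 64.4% in control. Por stood at 1.02 to 1.24 times the P450 sum with FICZ, 0.854 to 0.908 times with tryptamine and 0.696 to 0.851 times in control. The P450 sum leaves out the Cyp1 family, so these ratios do not give Por against all P450 genes of the cells. Cyp1a1 alone, in CPM not divided by length, had 951 to 1035 CPM with FICZ and 55.4 to 63.9 CPM in control. The shares and ratios are descriptions and were not tested.

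Cyp2s1 (gene ID 74134), which in other work takes lipid peroxides and retinoids as substrates, was the P450 outside the Cyp1 family that rose with FICZ. It had 52.2, 45.1 and 51.2 CPM in FICZ replicates 1 to 3, 31.4, 37.4 and 30.3 CPM in the tryptamine replicates, and 28.1, 26.1 and 22.4 CPM in the control replicates. Every FICZ library lay above every tryptamine library, and every tryptamine library above every control library. Its mean with FICZ was 49.5 ± 3.8 CPM and in control 25.6 ± 2.89 CPM (SD, n = 3 each), a 1.93-fold rise (95% interval 1.58 to 2.36). The log2 change was 0.95 ± 0.132 (SE), with an adjusted p of 0.0238 by edgeR's quasi-likelihood test and the Benjamini-Hochberg adjustment over 12372 genes. By p it ranked 10 among those genes.

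The count of members called was read against all genes. With FICZ over control, 0.113% of the genes tested passed with all 9 libraries, 14 genes in all, and 1 of the 15 members did. Without control replicate 3, 0.805% of 12539 genes passed and 2 of 15 members did, Cyp2s1 and Por. DESeq2's Wald test on all 9 libraries called the same 2 members, and 0.357% of the genes it tested. The groups did not overlap in CPM for 15.6% of genes, and for 2 of the 15 members, again Cyp2s1 and Por, which is near the background. Leaving out control replicate 3, they did not overlap for 27.8% of genes and for 3 of the 15 members, Cyp2s1, Por and Cyp39a1. In the fits to all 9 libraries with a replicate block, to sums over transcripts, or to the FICZ and control libraries alone, few genes passed at all, 0.0323%, 0.0297% and 0.0164%, and none of the members did.

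The call on Cyp2s1 held in 6 of 16 alternatives, with adjusted p from 1.16e-07 to 0.196, while the log2 change stayed between 0.87 and 1.02. Without control replicate 3 it was 0.87 ± 0.115 (SE), with an adjusted p of 5.38e-05. Leaving out control replicate 1 or 2 ended the call at adjusted p of 0.0524 and 0.121, leaving out FICZ replicates 1, 2 or 3 at 0.196, 0.121 and 0.173, and leaving out tryptamine replicates 1 or 3 at 0.0754 and 0.0559. All of these fits kept control replicate 3, as did every alternative in which the call held except the fit without it.

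With tryptamine the Cyp2s1 mean of 33 ± 3.83 CPM stood 1.29-fold above control (95% interval 1.05 to 1.58, n = 3 each), a log2 difference of 0.37 ± 0.132 (SE) that did not pass (edgeR adjusted p = 0.741). Without control replicate 3 the difference was 0.28 ± 0.117 (SE, adjusted p = 0.734). In this comparison 0.00808% of genes passed with all 9 libraries, 1 gene, and 0.199% without control replicate 3. None of the 15 members passed in either fit, while 1 of them, Cyp2s1, and 10.1% of all genes had groups that did not overlap. With that library left out these were 2 members, Cyp2s1 and Cyp4f16, and 20.1% of genes.

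The direct test of FICZ against tryptamine, each at its single dose, gave a Cyp2s1 log2 difference of 0.59 ± 0.130 (SE; 95% interval 0.30 to 0.87), a ratio of 1.5. It ranked 10 of 12372 genes by p, and its edgeR adjusted p was 1.00 with all 9 libraries, where 0% of genes passed. Control replicate 3 takes no part in this difference but enters the estimate of the spread. Without it the adjusted p was 0.00435 (log2 0.59 ± 0.10, SE), 0.136% of genes passed, and so did 2 of 15 members, Cyp2s1 and Por. In a fit to the FICZ and tryptamine libraries alone it was 0.00640, with 0.14% of genes passing and the same 2 members. In CPM the groups did not overlap for 11.3% of genes and for 3 of 15 members, Cyp2s1, Por and Cyp7b1, and for 11.4% of genes and the same 3 members without control replicate 3.

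Por (gene ID 18984) had 218.5, 224.5 and 198.1 CPM in FICZ replicates 1 to 3, 167.1, 177.5 and 154.4 CPM in the tryptamine replicates, and 145.8, 155.1 and 129.2 CPM in the control replicates. The FICZ libraries lay above all others, and tryptamine and control overlapped at a single pair of libraries. The FICZ mean of 213.7 ± 13.8 CPM was 1.49 times the control mean of 143.4 ± 13.1 CPM (SD, n = 3 each; 95% interval 1.27 to 1.75). With all 9 libraries the log2 difference of 0.58 ± 0.103 (SE) did not pass (edgeR adjusted p = 0.108), although it ranked 20 of 12372 genes by p. It passed without control replicate 3 (log2 0.51 ± 0.0758, SE, adjusted p = 0.000235), and by DESeq2's Wald test on all 9 libraries (log2 0.58, adjusted p = 0.000230). These were the only 2 of 16 alternatives in which the Por difference passed, and the adjusted p over the 16 reached 0.562.

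Por with tryptamine averaged 166.3 ± 11.6 CPM (SD, n = 3), 1.16 times control (95% interval 0.990 to 1.36). The log2 difference was 0.21 ± 0.103 (SE, edgeR adjusted p = 0.741) with all 9 libraries and 0.14 ± 0.0757 (SE, adjusted p = 0.817) without control replicate 3. FICZ over tryptamine gave a Por log2 difference of 0.36 ± 0.103 (SE, adjusted p = 1.00) with all 9 libraries and 0.37 ± 0.0669 (SE, adjusted p = 0.0100) without control replicate 3. FICZ over control and tryptamine over control share their control libraries, so the likeness of Cyp2s1 and Por in these 2 comparisons is not independent.

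**Figure D3:**
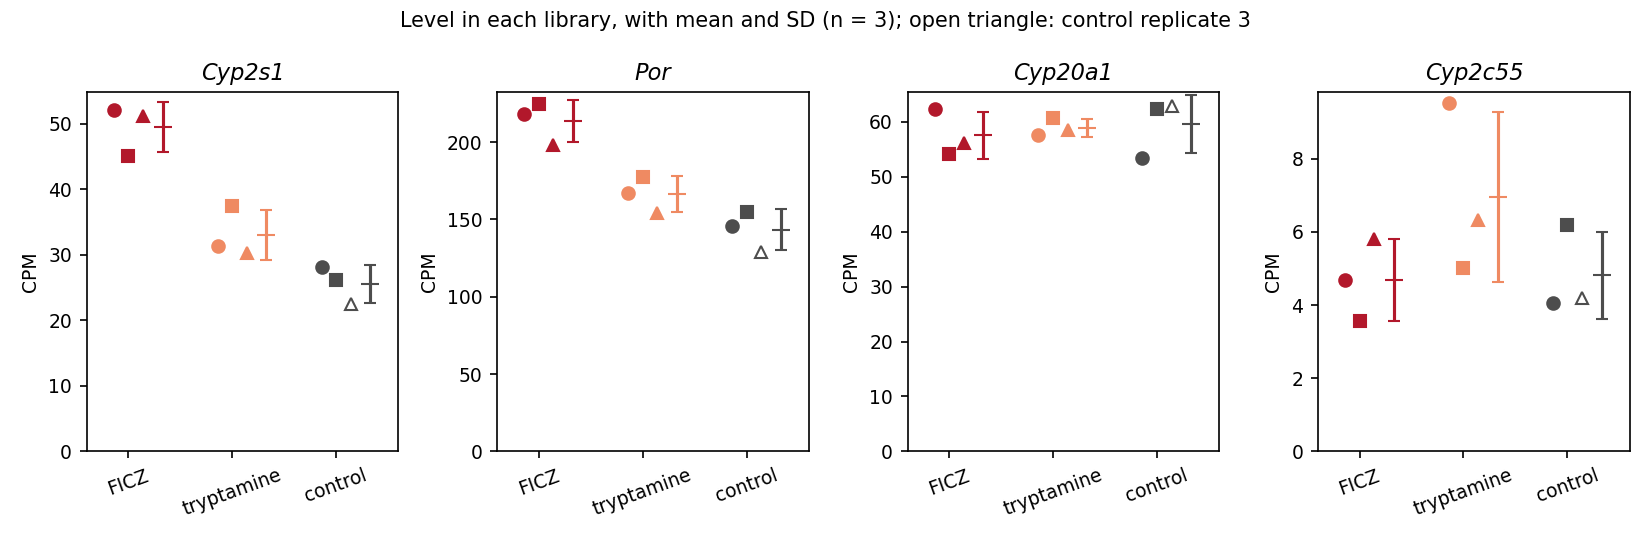
CPM of Cyp2s1, Por, Cyp20a1 and Cyp2c55 in each library, with the mean and SD of 3 libraries beside the points, for FICZ, tryptamine and control. Cyp2s1 with FICZ lies at 45.1 to 52.2 CPM, above all control libraries at 22.4 to 28.1 CPM; Cyp20a1 overlaps in all groups; and 1 tryptamine library sets the high mean of Cyp2c55.

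The tables list several overlapping transcript entries for each gene, and the entry with the highest count stands for the gene above. All 7 Cyp2s1 entries, of 566 to 3165 nt, were higher with FICZ. The log2 ratio of their mean CPM was 0.95 to 1.27 over the 3 controls and 0.82 to 0.94 over control replicates 1 and 2. In the authors' deposited table the adjusted p of all 7 was under 0.05 with FICZ over control and FICZ over tryptamine, while the lowest with tryptamine over control was 0.270. Por had 11 entries, 1 of them almost without counts. For the other 10, of 209 to 2636 nt, the log2 ratio with FICZ was 0.58 to 0.96 over the 3 controls and 0.45 to 0.72 over control replicates 1 and 2. In the authors' deposited table all 10 had an adjusted p under 0.05 with FICZ over control, 3 with FICZ over tryptamine and 0 with tryptamine over control. Control replicate 3 stood at 0.366 to 0.828 times the mean CPM of control replicates 1 and 2 in the Cyp2s1 entries and at 0.459 to 0.859 times in those of Por. Entries of 1 gene share reads and are not replicates.

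**Figure D4:**
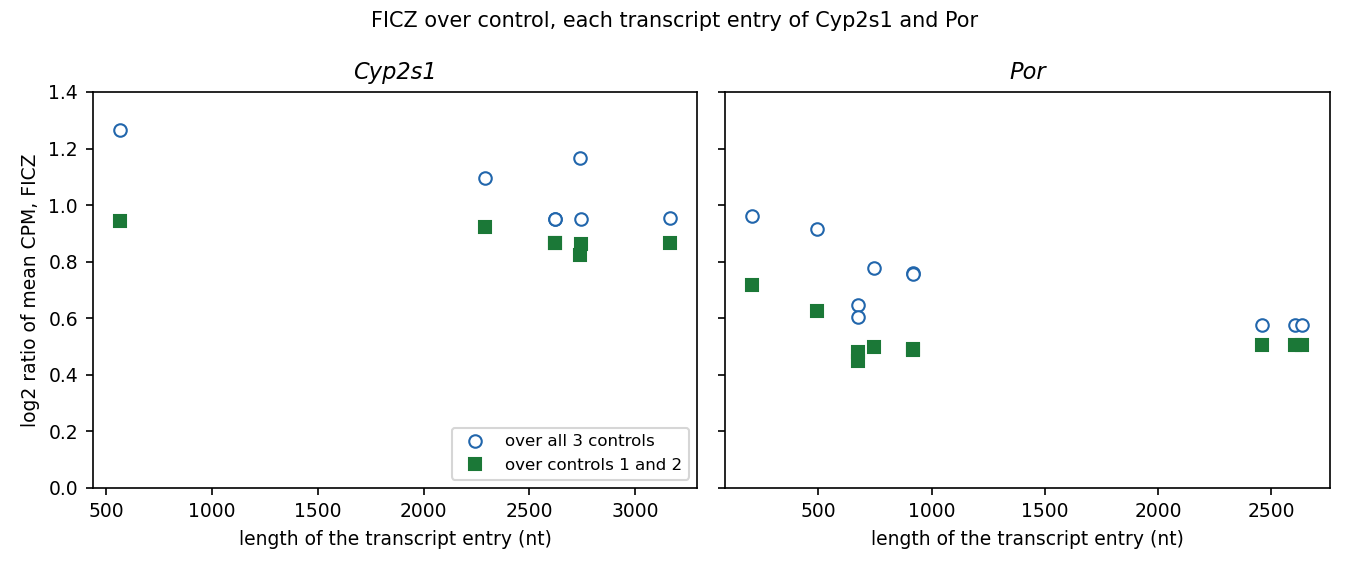
Log2 ratio of mean CPM, FICZ over control, for each transcript entry of Cyp2s1 and Por against its length in nt, over all 3 controls (open circles) and over control replicates 1 and 2 (squares). All ratios lie above 0, and those over the 3 controls reach 1.27 for Cyp2s1 and 0.96 for Por against 0.94 and 0.72 over control replicates 1 and 2.

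The 250 bases upstream of both genes are shown because these are the only members that passed in any fit. Por did not pass in the edgeR fit to all 9 libraries. The AhR with its partner ARNT is known to bind a core of GCGTG. The sequences come from RefSeq on GRCm38.p6, 5′ to 3′ on the strand of the gene, with each GCGTG core on either strand in capitals (CACGC where it lies on the other strand). The Cyp2s1 window is chr7:25816526-25816775 on the minus strand and the Por window chr5:135688895-135689144 on the plus strand.
Cyp2s1: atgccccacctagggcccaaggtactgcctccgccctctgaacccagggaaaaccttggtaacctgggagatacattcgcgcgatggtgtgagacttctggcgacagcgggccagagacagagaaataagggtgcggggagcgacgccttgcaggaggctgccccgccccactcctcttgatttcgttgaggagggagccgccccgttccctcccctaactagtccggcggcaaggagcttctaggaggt
Por: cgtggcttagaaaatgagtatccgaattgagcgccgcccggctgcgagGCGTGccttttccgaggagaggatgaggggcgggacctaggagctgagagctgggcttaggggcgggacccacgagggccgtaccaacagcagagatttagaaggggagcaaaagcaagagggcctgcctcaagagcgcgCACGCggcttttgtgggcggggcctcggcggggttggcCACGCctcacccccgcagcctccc
The Por window held 3 cores, which begin at positions -202, -62 and -24 counted from the gene start, and the Cyp2s1 window held 0. Of 32851 promoter windows of this length 28.2% held the core, and 2.77% held at least 3. Among windows whose GC content lay within 5 percentage points of that of Por, at 65.6%, 52.4% held it. Of the 15 tested members 11 had a window, and 3 of them, Cyp20a1, Cyp4f16 and Por, held the core. The longer form TNGCGTG, which contains the core, was in 4.1% of all windows, and the antioxidant response core TGACNNNGC, bound by NRF2 and its partners, in 10.2%, each searched on both strands, and neither was in any window of the 11. A match is a description of these letters, and sites farther from the start were not searched.

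Each of the other 13 tested P450 genes failed to pass in every comparison, with and without control replicate 3 and in all 624 values from the alternatives. In FICZ over control their log2 differences ran from -0.76 to 0.61, with 3 above 0 and 10 below, and edgeR adjusted p from 0.605 to 0.959. In tryptamine over control they ran from -0.53 to 0.53, with 8 above 0 and 5 below, and in FICZ over tryptamine from -0.82 to 0.29, with 3 above and 10 below. Over all 14 P450 genes tested the median log2 difference was -0.11 with FICZ over control, 0.10 with tryptamine over control and -0.15 with FICZ over tryptamine, beside -0.0057, 0.0040 and -0.0031 over all genes. Without control replicate 3 these medians were -0.03, 0.08 and -0.14.

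**Figure D5:**
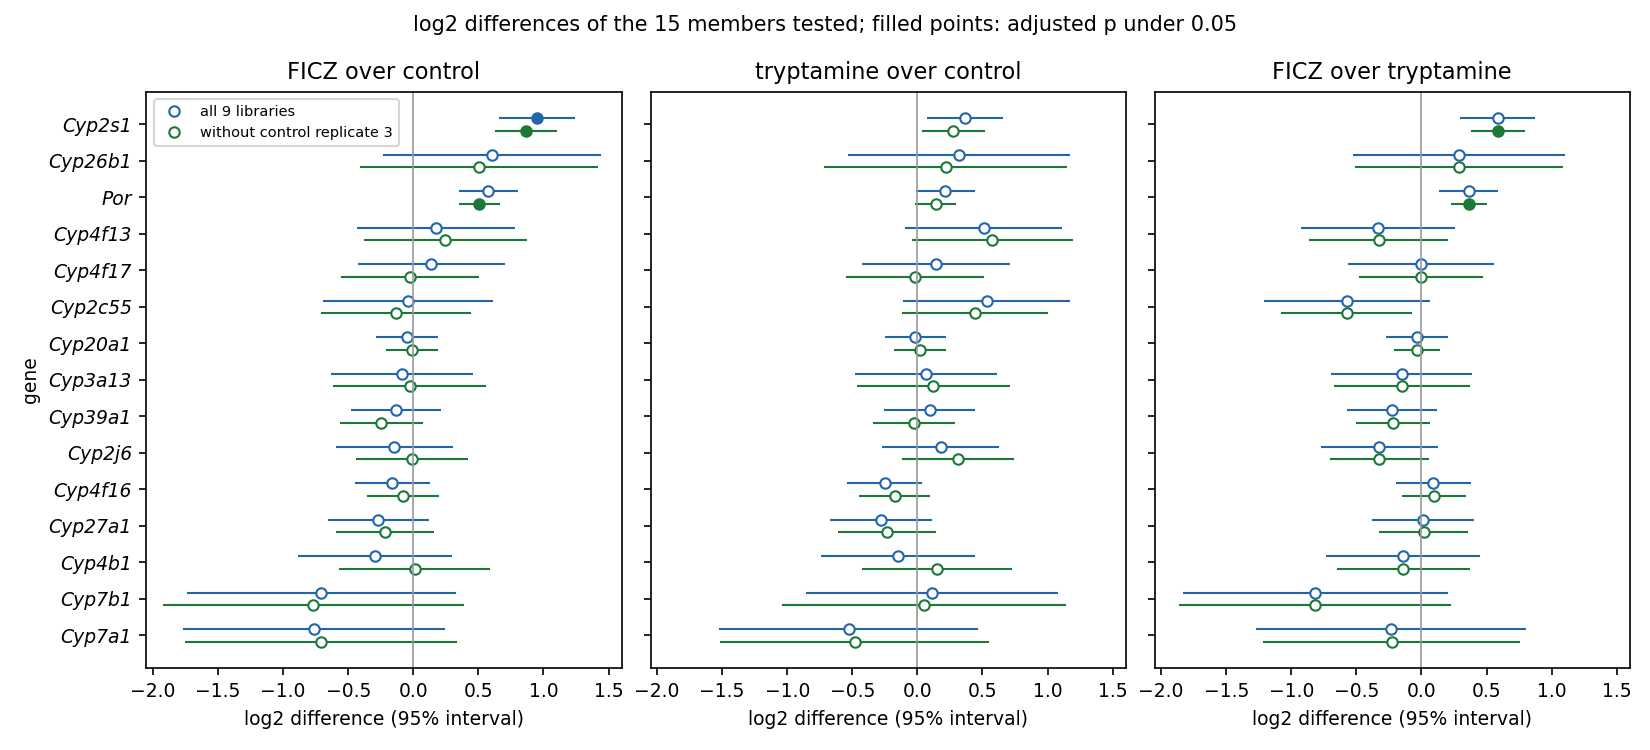
Log2 difference with its 95% interval for the 15 tested members in FICZ over control, tryptamine over control and FICZ over tryptamine, from the fit to all 9 libraries and from the fit without control replicate 3; filled points have an adjusted p under 0.05. Cyp2s1 is filled in FICZ over control in both fits, Por in FICZ over control and both genes in FICZ over tryptamine are filled without control replicate 3 only, and the intervals of the low bile acid genes are the widest.

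Cyp20a1, an orphan P450 with no settled substrate, was the most abundant P450 of the set. It had 62.4, 54.1 and 56.2 CPM with FICZ, 57.5, 60.7 and 58.5 CPM with tryptamine and 53.5, 62.3 and 63.0 CPM in control. The groups overlapped throughout, and its log2 difference was -0.05 with FICZ over control (95% interval -0.29 to 0.19) and -0.02 with tryptamine over control (95% interval -0.25 to 0.22). The differences without control replicate 3 were -0.0091 and 0.02. These are the narrowest intervals among the 14 P450 genes in both comparisons.

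In the xenobiotic group, Cyp2c55 and Cyp3a13 passed the filter beside Cyp2s1. Cyp2c55, a mouse P450 that hydroxylates arachidonic acid, had 4.70, 3.57 and 5.81 CPM with FICZ, 9.52, 5.02 and 6.32 CPM with tryptamine and 4.06, 6.19 and 4.18 CPM in control. Tryptamine replicate 1 was the highest, and the 3 groups overlapped. FICZ over tryptamine gave a log2 difference of -0.57 ± 0.289 (SE; edgeR adjusted p = 1.00), and -0.58 ± 0.244 (SE; adjusted p = 0.727) without control replicate 3. Tryptamine over control gave 0.53 ± 0.290 (SE; adjusted p = 0.741). Cyp3a13, of the drug- and steroid-oxidising Cyp3a subfamily, had 2.92, 3.16 and 4.58 CPM with FICZ, 3.94, 3.48 and 4.39 CPM with tryptamine and 3.11, 4.13 and 4.10 CPM in control. Its groups overlapped in all 3 comparisons, and its log2 difference with FICZ over control was -0.09 ± 0.248 (SE), or -0.03 ± 0.286 (SE) without control replicate 3.

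The fatty acid and eicosanoid group held 5 tested genes. Cyp4f16 had 20.3, 18.8 and 17.8 CPM with FICZ, 17.8, 17.4 and 18.2 CPM with tryptamine and 18.2, 21.9 and 23.5 CPM in control. The tryptamine libraries lay at the low end, and tryptamine over control gave a log2 difference of -0.25 ± 0.131 (SE; edgeR adjusted p = 0.741), or -0.18 ± 0.134 (SE; adjusted p = 0.893) without control replicate 3. Cyp4f17 had 5.48, 4.29 and 4.24 CPM with FICZ, 4.83, 3.86 and 5.29 CPM with tryptamine and 5.68, 3.78 and 3.16 CPM in control. Cyp4f13 had 3.56, 3.39 and 3.76 CPM with FICZ, 3.74, 5.95 and 3.87 CPM with tryptamine and 2.23, 3.78 and 3.50 CPM in control. Reads of these 3 Cyp4f genes may be split between near-identical copies, since the counting rule is not given.

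Cyp2j6, of a subfamily that makes epoxides from arachidonic acid, had 7.54, 6.07 and 7.04 CPM with FICZ, 6.94, 8.42 and 10.5 CPM with tryptamine and 6.63, 7.22 and 9.04 CPM in control. Cyp4b1, which oxidises fatty acids and activates protoxins in mouse lung, had 3.13, 3.75 and 3.08 CPM with FICZ, 4.01, 3.86 and 3.16 CPM with tryptamine and 3.52, 3.10 and 5.72 CPM in control. Control replicate 3 was the highest of the 9 libraries for Cyp4b1, whose log2 difference with FICZ over control was -0.29 ± 0.268 (SE) with it and 0.01 ± 0.280 (SE) without it. Neither gene had groups free of overlap.

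The bile acid and oxysterol group ranged from moderate to barely counted. Cyp39a1, an oxysterol hydroxylase, had 11.4, 12.4 and 12.4 CPM with FICZ, 14.5, 15.6 and 12.3 CPM with tryptamine and 15, 13.6 and 11 CPM in control. Cyp27a1, the mitochondrial enzyme that hydroxylates the sterol side chain, had 8.18, 9.29 and 11.1 CPM with FICZ, 8.57, 11.4 and 8.45 CPM with tryptamine and 11.2, 10.9 and 12.4 CPM in control. The log2 difference with FICZ over control was -0.13 ± 0.158 (SE) for Cyp39a1 and -0.27 ± 0.176 (SE) for Cyp27a1, with edgeR adjusted p of 0.730 and 0.605. The Cyp39a1 difference without control replicate 3 was -0.24 ± 0.154 (SE; adjusted p = 0.647) and its FICZ and control libraries no longer overlapped, while without control replicate 1 it was -0.033. The Cyp27a1 difference without control replicate 3 was -0.21 ± 0.183 (SE; adjusted p = 0.761).

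Cyp7a1, the rate-limiting enzyme of the classical bile acid pathway in liver, had 19, 13 and 14 counts with FICZ, 10, 26 and 15 with tryptamine and 17, 32 and 22 in control. Its log2 difference with FICZ over control was -0.76 ± 0.457 (SE; 95% interval -1.77 to 0.24, edgeR adjusted p = 0.605), and -0.71 ± 0.507 (SE) without control replicate 3. Cyp7b1, an oxysterol hydroxylase of the alternative pathway, had 8, 12 and 9 counts with FICZ, 20, 10 and 19 with tryptamine and 24, 8 and 11 in control. FICZ over tryptamine gave a log2 difference of -0.82 ± 0.461 (SE; 95% interval -1.84 to 0.20, adjusted p = 1.00), although the CPM of the libraries did not overlap; without control replicate 3 it was -0.81 ± 0.507 (SE). With FICZ over control, the Cyp7b1 interval was -1.74 to 0.33. Neither this interval nor that of Cyp7a1 reached the Cyp2s1 rise of 0.95, while both held a fall of that size. Cyp26b1, the retinoic acid hydroxylase that passed the filter, had 32, 21 and 30 counts with FICZ, 27, 21 and 17 with tryptamine and 14, 24 and 12 in control. Its log2 difference with FICZ over control was 0.61 ± 0.379 (SE; edgeR adjusted p = 0.605), and 0.51 ± 0.445 (SE) without control replicate 3. With all 9 libraries its 95% interval of -0.23 to 1.44 held a rise of the size of that of Cyp2s1.

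Genes that supply P450 enzymes with electrons or heme were followed beside them. Of 9 electron transfer genes other than Por, which include cytochrome b5 (Cyb5a), its reductases and the mitochondrial pair Fdx1 and Fdxr, all were measured and none passed in any comparison, with or without control replicate 3. Their median log2 difference was -0.04 with FICZ over control and -0.03 with tryptamine over control, and 0.055 and 0.053 without control replicate 3. Of 10 genes for heme synthesis and breakdown 1 passed with FICZ over control, Cpox, the coproporphyrinogen oxidase. Cpox had 269.7, 237.2 and 250.4 CPM with FICZ, 180.3, 191.4 and 189.3 CPM with tryptamine and 135.7, 139.8 and 102.0 CPM in control. Its log2 change with FICZ was 1.00 ± 0.123 (SE; edgeR adjusted p = 0.0147), and without control replicate 3 it also passed with tryptamine over control (log2 0.44 ± 0.0705, SE, adjusted p = 0.00297) and with FICZ over tryptamine (log2 0.44 ± 0.0615, SE, adjusted p = 0.000349).

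Alad, an earlier enzyme of heme synthesis, had 290.2, 289.9 and 277.5 CPM with FICZ, 340.7, 364.4 and 336.7 CPM with tryptamine and 387.8, 357.2 and 597.2 CPM in control, where replicate 3 was far above the others. It did not pass with all 9 libraries (log2 -0.65 ± 0.164, SE, adjusted p = 0.485), and without control replicate 3 it fell with FICZ over control (log2 -0.38 ± 0.0628, SE, adjusted p = 0.000824) and over tryptamine (log2 -0.28 ± 0.0567, SE, adjusted p = 0.0370). Alas1, the rate-limiting enzyme of heme synthesis in liver, did not pass in any comparison (log2 0.24 ± 0.156, SE, adjusted p = 0.605 for FICZ over control).

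Of 18 nuclear receptors and liver factors that govern P450 genes, 12 were measured and none passed with all 9 libraries. Nr1i2 (the pregnane X receptor), Hnf4a and Nr5a2 were listed at 0 in every library, and Ppara, Cebpa and Nr0b2 had counts in 1 library each. Nr1i3 (the constitutive androstane receptor) was present at 55.2 to 58.8 CPM with FICZ, 53.8 to 63.1 CPM with tryptamine and 61.5 to 90.3 CPM in control. Ahr itself lay at 18.8 to 22.5 CPM with FICZ, 21.6 to 25.0 CPM with tryptamine and 17.9 to 26 CPM in control. Without control replicate 3, 1 of the 12 rose with FICZ, Nfe2l2, which encodes NRF2 (log2 0.40 ± 0.0637, SE, edgeR adjusted p = 0.000475). For scale, Cyp1a1, the Cyp1 family readout of the AhR, had 951 to 1035 CPM with FICZ, 674 to 754 CPM with tryptamine and 55.4 to 63.9 CPM in control.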

How the data were processed

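RNA-seq tables for the 3 pairs of groups list 189660 transcript entries each. Per the file headers the deposited values are whole-number read counts per entry and library, with the transcript length in nt, and with the authors' own comparison of each pair as a p-value, an adjusted p-value and a log2 fold change. DESeq is the tool named, with no version, per the submitters' processing notes. Aligner, counting rule, strand, build and annotation: not given in the sources used here.

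Each gene was represented by the entry with the highest mean count, because overlapping entries share reads. Of 5653 entries that name several loci, 928 were assigned through their RefSeq identifier. Total counts were 11594786 to 16715843 per library, and counting error sets the precision of low genes.

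All 9 libraries were fitted together in edgeR 4.0.16 (R 4.3.3) with TMM scaling, filterByExpr, a term for group alone, tested by quasi-likelihood, and p-values were adjusted by Benjamini-Hochberg over all genes tested (threshold 0.05). SE is the log2 difference divided by the square root of F, and CPM refers to the effective library size. The steps were tested on data simulated with a single spread for all genes and no library that stood apart. That test does not cover the effect of control replicate 3. Gene changes with an adjusted p under 0.05 are called rises or falls. DESeq2 1.42.0 was an alternative, beside other scalings, filters, sums over transcripts, fits to a pair and fits leaving out a library.

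The members were named by rule: Cyp2s1, Por, all members passing the filter, and otherwise those with the highest sums. Their choice, the role groups and the lists of partner genes and markers were made with earlier results of these data known. Entries naming several loci, such as the shared entry of Cyp4v3, were left out.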

Additional observations from a re-analysis of the deposited data

How the results depend on the processing

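The log2 differences of Cyp2s1 and Por kept their sign in all 16 alternatives of each comparison. For Cyp2s1 with FICZ over control, the call was lost in the fit to the 6 libraries of the pair (log2 0.95, adjusted p = 0.134), with sums over transcripts (0.99, adjusted p = 0.0578) and with a replicate block (0.96, adjusted p = 0.115); leaving out 1 library gave 0.87 to 1.02. For Por with FICZ over control, 2 of 16 alternatives passed, DESeq2's Wald test (0.58, adjusted p = 0.000230) and the fit without control replicate 3. Leaving out 1 library gave 0.51 to 0.64. For FICZ over tryptamine, the pair alone passed for Cyp2s1 (0.59) and Por (0.37), and leaving out 1 library gave 0.53 to 0.68 and 0.31 to 0.41. Members called with FICZ over control numbered 1, against 2 with the Wald test, 0 with the pair alone, the block or the sums, and 0 to 2 leaving out 1 library. Over all genes those fits called 14, against 50 with the Wald test, 2, 4 and 4 with the pair, the block and the sums, and 4 to 101 leaving out 1 library. With FICZ over tryptamine they numbered 0, against 2 with the pair alone and 0 to 2 leaving out 1 library, where 17 genes in all passed with the pair or without control replicate 3 and 0 without any other library. With tryptamine over control they numbered 0 in all. Deviations of same-numbered libraries correlated at -0.0575 to 0.116 over 9 pairs, and those of other pairs at -0.122 to 0.102. Whether the replicate numbers pair the libraries cannot be told from these values. The cause of the lost calls was not tested.

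Among the other 13 members, 15 results near 0 (main log2 within 0.294) changed sign when a library was left out, with an adjusted p under 0.05 in none. Their ranges, leaving out 1 library, were as follows. With FICZ over control they were -0.22 to 0.19 for Cyp2c55, -0.31 to 0.033 for Cyp3a13, -0.46 to 0.0098 for Cyp4b1, -0.032 to 0.33 for Cyp4f13 and -0.023 to 0.42 for Cyp4f17. With tryptamine over control they were -0.093 to 0.022 for Cyp20a1, -0.024 to 0.19 for Cyp39a1, -0.064 to 0.15 for Cyp3a13, -0.32 to 0.15 for Cyp4b1, -0.020 to 0.42 for Cyp4f17 and -0.20 to 0.61 for Cyp7b1. With FICZ over tryptamine they were -0.10 to 0.0093 for Cyp20a1, -0.11 to 0.16 for Cyp27a1, -0.13 to 0.10 for Cyp4f17 and -0.52 to 0.30 for Cyp7a1. Cyp4f17 there also turned to 0.0022 with DESeq2 size factors, 0.0020 with the Wald test, 0.0013 without a filter and 0.0022 with sums over transcripts. With 3 libraries a group and few counts, the 95% intervals of Cyp7a1 and Cyp7b1 are wide. With FICZ over control they hold a fall of the size of the Cyp2s1 rise, but no rise of that size. The interval of Cyp26b1, -0.23 to 1.44, does hold such a rise.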

Other observations

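Cyp entries outside the naming rule were counted too. The entry that names both Klkb1 and Cyp4v3, 2 neighbouring genes, had 143, 166 and 185 counts in FICZ replicates 1 to 3, 129, 123 and 145 in the tryptamine replicates and 102, 160 and 103 in the control replicates. Cyp51, the lanosterol demethylase of cholesterol synthesis, had 1257, 1506 and 1194 counts with FICZ, 1486, 1320 and 1503 with tryptamine and 1352, 1397 and 1019 in control. Cyp4f41-ps, a pseudogene, had 41 counts over all libraries. Cyp4a12b had 5 and Cyp3a41b 3, while Cyp4a12a and Cyp3a41a were at 0. These counts are not scaled to library size and were not tested.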
